A study of Mus musculus with 16 samples.

Results

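The miR-99/100 and miR-125 families were represented in plasma extracellular vesicles (pEVs) by 5 mature microRNAs, mmu-miR-99a-5p, mmu-miR-99b-5p, mmu-miR-100-5p, mmu-miR-125a-5p and mmu-miR-125b-5p. They were chosen by name from a table of 15159 non-coding RNAs (ncRNAs) with at least 1 read, of which 1247 were miRNA entries, 817 were mature miRNAs and 219 of these averaged 10 or more normalized counts. All 5 had reads in all 16 libraries. The libraries came from 8 PS19 mice and 8 wild-type (WT) littermates, 1 library per mouse, with males and females in equal number in each genotype and an age of about 9.6 months. PS19 mice are heterozygous for a human tau transgene with the P301S change, driven by the mouse prion promoter (Prnp), on a B6;C3 background. The vesicles were precipitated from 200 µL of plasma, a method that can carry over other plasma material, and their small RNA was sequenced. Such vesicles are released by many tissues, so a level in this pool cannot be assigned to a tissue, and fewer vesicles from a source cannot be told apart from less RNA per vesicle.

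miRNAs are short RNAs that guide Argonaute proteins to messenger RNAs, mostly by pairing of bases 2 to 8, the seed. The miR-125 family contains the mammalian relatives of lin-4, the first miRNA described in worms, and its members are abundant in the brain and in blood stem cells. The miR-99/100 family is best known for repressing mTOR and the IGF1 receptor. Members of both families lie next to let-7 genes, whose products restrain proliferation in differentiated cells.

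The mature sequences show how closely the 5 miRNAs resemble each other, which matters for how reads can be assigned to them. They were taken from RefSeq (GRCm38.p6), where all 5 names were matched, and are written 5′ to 3′ with the seed in capitals. The first 3 carry the miR-99/100 seed and the last 2 the miR-125 seed.
mmu-miR-99a-5p: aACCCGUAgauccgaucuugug
mmu-miR-100-5p: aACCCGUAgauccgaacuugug
mmu-miR-99b-5p: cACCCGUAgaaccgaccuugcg
mmu-miR-125a-5p: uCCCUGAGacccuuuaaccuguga
mmu-miR-125b-5p: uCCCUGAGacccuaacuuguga

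Counting positions from the 5′ end, miR-99a and miR-100 were the same in 21 of 22 bases and differed by U16A. miR-99a differed from miR-99b at 4 positions (A1C, U11A, U16C and U21C). miR-125a has 24 bases and miR-125b has 22, and their first 13 bases were identical. The mismatches allowed when reads were assigned are not given in the sources used here, so the division of reads between miR-99a and miR-100 is uncertain to that extent.

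The genes form 3 clusters, each with a miR-99/100 gene, a let-7 gene and a miR-125 gene on the plus strand (GRCm38, GENCODE). On chromosome 16, Mir99a (77598936 to 77599000), Mirlet7c-1 (77599657 to 77599750) and Mir125b-2 (77646273 to 77646343) lie in introns of the non-coding gene Mir99ahg. On chromosome 9, Mir100 (41531425 to 41531504), Mirlet7a-2 (41536716 to 41536811) and Mir125b-1 (41581926 to 41582002) lie in introns of the non-coding gene 3110039I08Rik. On chromosome 17, Mir99b (17830188 to 17830257) and Mirlet7e (17830352 to 17830444) lie in introns of the protein-coding gene Spaca6, and Mir125a (17830812 to 17830879) overlaps an exon of it. The 3 clusters span 47408, 50578 and 692 bp. Mature miR-125b-5p is the same RNA from Mir125b-1 and Mir125b-2, so its reads cannot be divided between chromosomes 9 and 16. In the same way, let-7a-5p and let-7c-5p are each made from further loci outside these clusters.

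The depth of the libraries bears on every value below. Between 36220722 and 117583663 reads per library were assigned to ncRNAs, of which miRNAs took between 0.0645% and 7.51%. PS19 replicates 1, 3 and 4 had 71308, 166148 and 52562 miRNA reads, and the other 13 libraries had 339731 to 2720314. Across 219 mature miRNAs, the median log2 deviation from the mean of all libraries was -1.63, -0.69 and -0.96 in these 3 libraries. The 5 miRNAs together had 1100 to 33371 reads per library, and the smallest single count was 35 reads, of miR-125a in PS19 replicate 3. Normalized counts below are reads divided by DESeq2 size factors from all ncRNAs, and reads per 1000000 miRNA reads (RPM) are given as a second scale.

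The 5 miRNAs differed widely in level, with miR-99a far above the rest. Its mean normalized count over all 16 libraries was 7388, compared with 767 for miR-99b, 650 for miR-100, 323 for miR-125a and 226 for miR-125b. By mean they stood at places 15, 48, 52, 68 and 81 of the 817 mature miRNAs. All are about the same length, but how efficiently each was ligated and amplified was not measured, so the order is one of read levels. miR-99a was above miR-99b in 16 of 16 libraries, by 3.14 ± 0.64 on the log2 scale (SD, n = 16). miR-99b and miR-100 did not differ beyond their spread, with a mean log2 difference of 0.27 ± 0.68 and miR-99b higher in 9 of 16 libraries. miR-100 was above miR-125a in 16 of 16 libraries, by 1.04 ± 0.62, whereas miR-125a was above miR-125b in 13 of 16, by 0.56 ± 0.60, a mean smaller than its SD.

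Together the 5 miRNAs made up 1.70% ± 0.53 of miRNA reads in PS19 mice and 1.54% ± 0.42 in their WT littermates (SD, n = 8). miR-99a accounted for 67.8% to 88.1% of their reads in 15 libraries and for 40.0% in PS19 replicate 4. In that library miR-100 took 24.8%, miR-125a 10.9% and miR-125b 10.7% of the reads, on 1221 reads in all. The miR-125 seed was carried by 21.6% of the reads there, and by 2.87% to 10.1% elsewhere, where the highest share was in WT replicate 7.

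**Figure D1:**
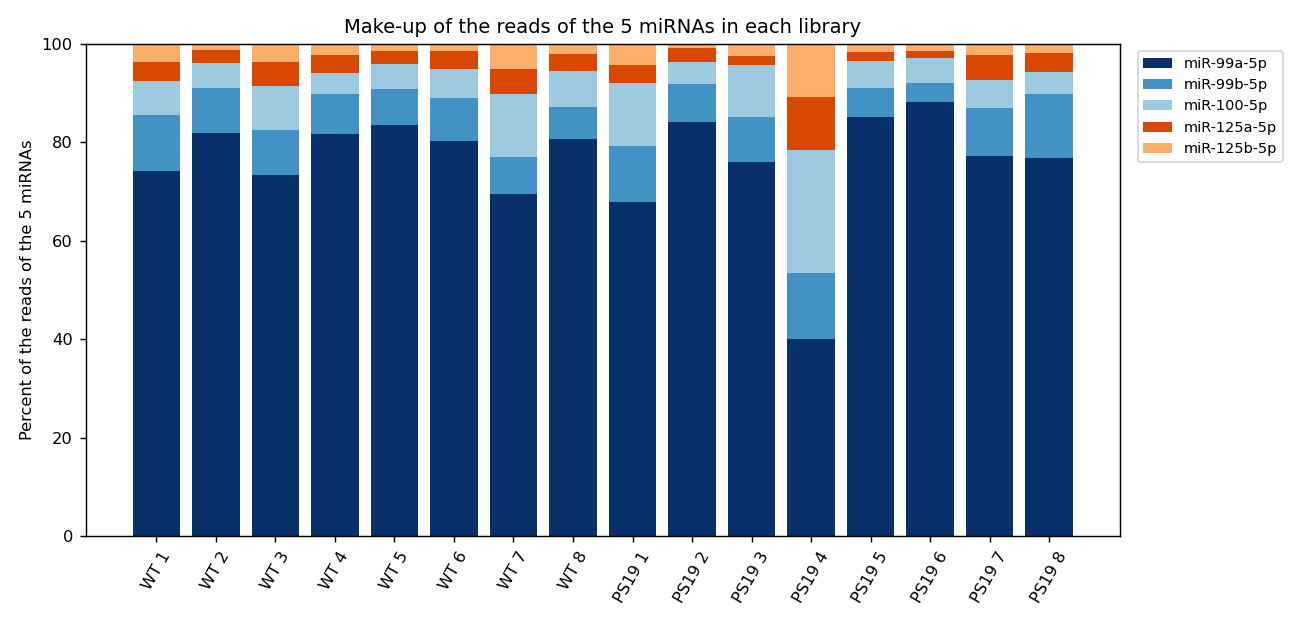
Percent of the reads of the 5 miRNAs (vertical axis) that each miRNA took in each of the 16 libraries, WT on the left and PS19 on the right, 1 bar per mouse. miR-99a (dark blue) is the largest part in each bar, and PS19 replicate 4 stands apart with 40.0% miR-99a.

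PS19 mice were compared with WT to ask whether the pEV level of each family member differs with the tau transgene. No member passed limma at a raw p of 0.05 (0 of 5), where 4.85% of all 15159 ncRNAs and 5.93% of 1247 miRNA entries did, and 0 of 5 also passed with DESeq2 and with edgeR on reads recovered from the values, which called 5.42% and 15.1% of all ncRNAs. The exact permutation test, two-sided on 8 against 8 libraries, passed 1 of 5 members, miR-125a, where it passed 3.96% of all ncRNAs. The mean of each member was lower in PS19, and the members' median log2 fold change was -0.70. The median of the 219 mature miRNAs was -0.64, with 203 of them below 0, and that of all ncRNAs was -0.01. Among these 219, between 51 and 130 had a lower log2 fold change than a given member. All fold changes are PS19 over WT on the log2(normalized count + 1) scale, and the limma adjusted p (Benjamini-Hochberg over all ncRNAs) was 0.829 for each member.

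miR-99a, a repressor of mTOR, was spread more widely over the PS19 than over the WT libraries. Its normalized count was 1096 at the lowest, 4946 at the median and 12863 at the highest in PS19, and 6066, 7646 and 10990 in WT. PS19 replicates 1, 3, 4 and 7 lay below every WT library, replicates 2, 5 and 6 lay above every WT library, and replicate 8 lay within the WT range. On RPM, 0 PS19 libraries lay below every WT library and 2 lay above. The PS19 mean was 6485 ± 5136 and the WT mean 8290 ± 1787 (SD, n = 8). The log2 fold change was -0.86 (SE 0.53, 95% interval -1.94 to 0.23), with a limma p of 0.116 and an exact permutation p of 0.117. With DESeq2 on recovered reads it was -0.35, with an adjusted DESeq2 p of 0.852.

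miR-99b, from the compact chromosome 17 cluster, had a normalized count of 185, 597 and 1201 (lowest, median and highest) in PS19 and of 583, 870 and 1206 in WT. PS19 replicates 1 and 3 were far below the rest, 4 of 8 PS19 libraries lay below every WT library, and the highest of each genotype were close. On RPM, by contrast, 0 PS19 libraries lay below and 2 lay above every WT library. The mean normalized counts were 647 ± 368 and 886 ± 203. The log2 fold change was -0.67 (SE 0.45, 95% interval -1.60 to 0.25; limma p = 0.146, exact permutation p = 0.0923).

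miR-100 differs from miR-99a by 1 base and shares its seed, but its values were ordered differently over the libraries. Its normalized count was 207, 513 and 1162 in PS19 and 405, 677 and 1632 in WT. PS19 replicates 1, 3, 7 and 8 lay below every WT library, while WT replicate 7 and PS19 replicate 4 were the highest of all. On RPM only 1 PS19 library lay below every WT library, and 1 lay above. The mean normalized counts were 549 ± 334 and 751 ± 373, and the log2 fold change was -0.58 (SE 0.46, 95% interval -1.51 to 0.36; limma p = 0.216, exact permutation p = 0.149).

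miR-125a, the partner of miR-99b on chromosome 17, had the most PS19 libraries below every WT library among the 5 on normalized counts, though not on RPM, where 1 PS19 library lay below and 1 above every WT library. Its normalized count was 48.0, 250 and 510 in PS19 and 320, 355 and 635 in WT. In PS19, 6 of 8 libraries lay below every WT library, and replicates 2 and 4 lay within the WT range. The means were 256 ± 161 and 391 ± 102. The log2 fold change was -0.94 (SE 0.49, 95% interval -1.95 to 0.07), which missed the threshold with limma (p = 0.0661) and passed it with the exact permutation test (p = 0.0420, and 1 after adjustment over all ncRNAs). Without PS19 replicate 2, 4 or 8 the limma p was 0.0290, 0.0193 and 0.0463, and 5.32%, 5.25% and 5.06% of all ncRNAs were called. No other removal of 1 library passed. Without PS19 replicate 1, PS19 replicate 3 or WT replicate 7 the limma p rose to 0.114, 0.110 and 0.0949.

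miR-125b, which is abundant in neurons, had a normalized count of 57.6, 143 and 502 in PS19 and of 123, 195 and 642 in WT. PS19 replicates 1, 3 and 7 lay below every WT library, and the highest values were again in WT replicate 7 and PS19 replicate 4. On RPM, 1 PS19 library lay below every WT library and 1 lay above. The mean normalized counts were 181 ± 142 and 271 ± 168. The log2 fold change was -0.70 (SE 0.48, 95% interval -1.70 to 0.29, limma p = 0.159, exact permutation p = 0.131). Without PS19 replicate 4 it was -0.96 and passed limma, where 5.25% of all ncRNAs did. Without WT replicate 7 it was -0.50 and did not pass. No other removal of 1 library passed.

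**Figure D2:**
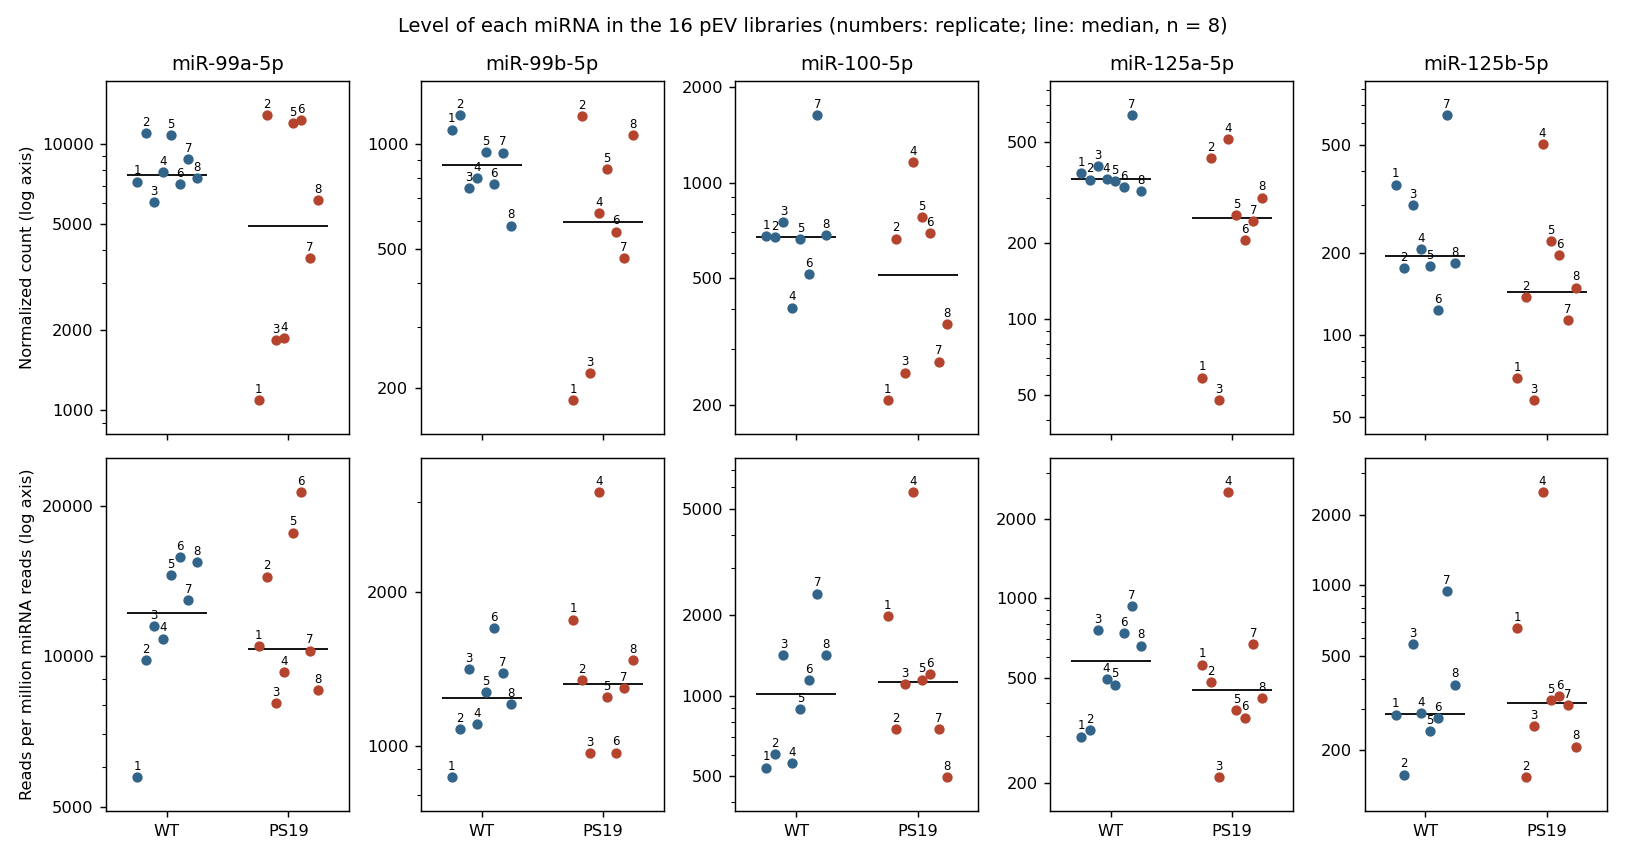
Normalized count (top row) and RPM (bottom row) of each miRNA in 8 WT and 8 PS19 libraries, on log axes, with the replicate number above each point and a line at the median. In the top row PS19 replicates 1 and 3 are the 2 lowest for each miRNA, and in the bottom row PS19 replicate 4 is the highest for each one but miR-99a.

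The direction of these differences depended on what the libraries were scaled to. On RPM, the log2 differences of PS19 from WT were 0.027 for miR-99a, 0.21 for miR-99b, 0.31 for miR-100, -0.062 for miR-125a and 0.18 for miR-125b, with exact permutation p-values of 0.915, 0.391, 0.546, 0.896 and 0.760. The scaling itself moved the median log2 fold change of all ncRNAs from -0.01 to 0.29, and that of the 219 mature miRNAs from -0.64 to 0.19, beside which the members' median was 0.18. With size factors from miRNAs only, the members' median was -0.12 and that of the mature miRNAs -0.09. Under each of these scalings the members' median stayed close to that of mature miRNAs as a whole.

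On this second scale the library order changed as well. PS19 replicate 4 had the highest level of 4 of the 5 miRNAs: 3139 RPM for miR-99b (Wilson 95% interval 2696 to 3655), 5765 for miR-100 (5153 to 6449), 2530 for miR-125a (2136 to 2998) and 2492 for miR-125b (2101 to 2956). The next highest library had 1767, 2404, 936 and 945. miR-99a in PS19 replicate 4 was at 9303 (8518 to 10161), inside the range of the other libraries, which ran from 5746 to 21289. These intervals cover counting error only.

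Leaving out PS19 replicates 1, 3 and 4, a choice made after seeing the data because they had under 200000 miRNA reads, gave log2 fold changes of 0.060 for miR-99a, -0.15 for miR-99b, -0.43 for miR-100, -0.46 for miR-125a and -0.58 for miR-125b. The median of mature miRNAs was then -0.11. The difference for miR-125a had a limma p of 0.0532 and an exact permutation p of 0.0381, and 0 of 5 members passed limma, where 4.93% of all ncRNAs did. In the 5 remaining PS19 libraries miR-125a had a normalized count of 204 to 429, with a median of 256.

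The library names begin with G in all 8 PS19 libraries and in 2 WT libraries, and with F or A in the other 6 WT libraries. What the letters stand for is not given in the sources used here. Within the names in G (8 against 2), log2 fold changes were -1.05, -0.86, -0.17, -0.84 and -0.39 for miR-99a, miR-99b, miR-100, miR-125a and miR-125b, with exact permutation p-values of 0.378, 0.289, 0.822, 0.444 and 0.578, where the smallest p possible is 0.0222. There limma called 0 of 5 members and 5.66% of all ncRNAs. Whether the letter has a part in the differences was not tested.

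**Figure D3:**
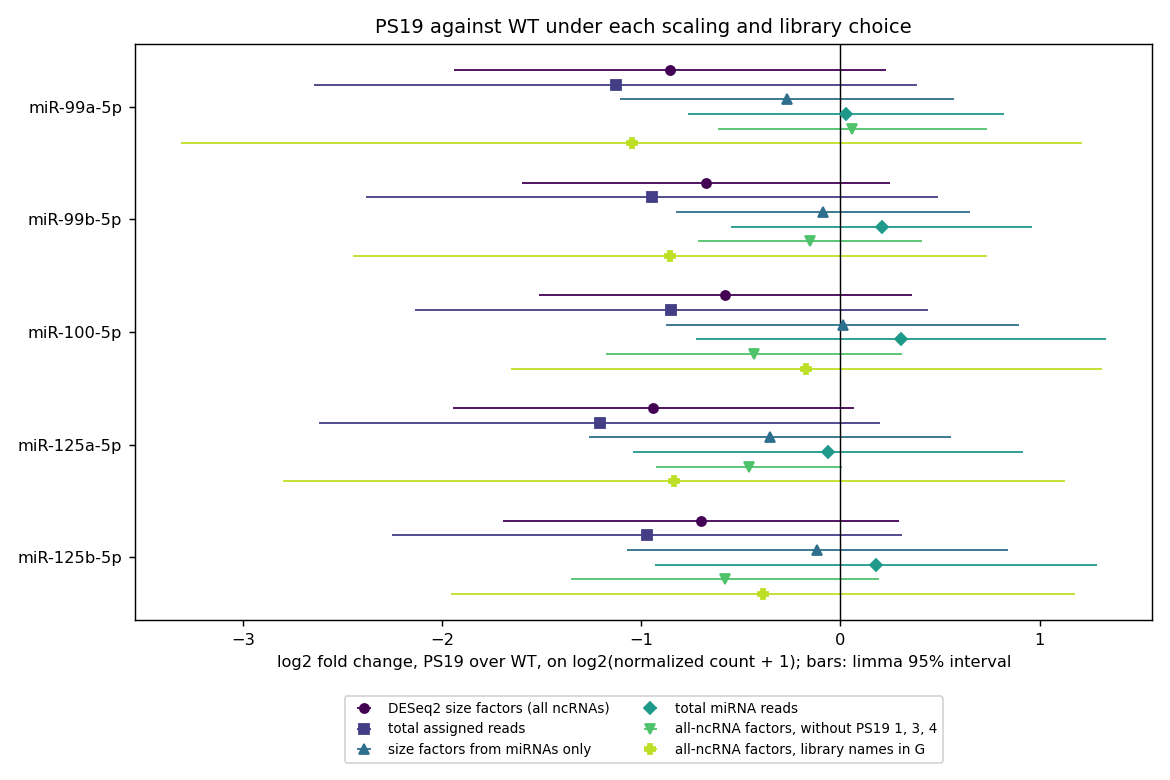
log2 fold change of PS19 over WT for each miRNA (horizontal axis, with limma 95% intervals) under 4 scalings and 2 choices of libraries. With all-ncRNA size factors and all 16 libraries each point lies left of 0, and with total miRNA reads 4 of 5 points lie right of 0; each interval includes 0.

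Ratios within a library depend little on its scaling, so they compare members directly. Of the 4 ratios, only that of miR-125a to miR-99b lies within 1 cluster: miR-125b cannot be divided between chromosomes 9 and 16, and miR-100 and miR-99a are on different chromosomes. The log2 ratio of miR-125a to miR-99b, from the chromosome 17 cluster, was -1.44 ± 0.58 for PS19 against -1.18 ± 0.39 for WT (SD, n = 8; exact permutation p = 0.300). The log2 ratio of miR-125b to miR-100 was -1.67 ± 0.41 and -1.54 ± 0.46 (exact permutation p = 0.566). That of miR-125b to miR-99a was -4.94 ± 1.45 and -5.09 ± 0.84 (exact permutation p = 0.814), and that of miR-100 to miR-99a was -3.27 ± 1.24 and -3.55 ± 0.61 (exact permutation p = 0.618). None of the 4 ratios passed the test, with an adjusted p of 0.814 for each over the 4. PS19 replicate 4 had the highest value of each ratio except that of miR-125b to miR-100, and without it the differences of the ratios to miR-99a turned from 0.15 to -0.28 and from 0.28 to -0.089.

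The members nevertheless varied together in an uneven way. Over 16 libraries, miR-100 and miR-125b had a Spearman rho of 0.87 on normalized counts and of 0.84 on RPM. The SD of their log2 ratio over all libraries was 0.42, compared with 0.92 for miR-125b and 0.79 for miR-100 alone. Without PS19 replicate 4 and WT replicate 7, the 2 highest libraries, rho was 0.81 and 0.76 (n = 14). Within PS19 it was 0.95 and within WT 0.64 on either scale (n = 8 each).

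The chromosome 17 pair, miR-99b and miR-125a, had a rho of 0.59 on normalized counts and of 0.77 on RPM. Within PS19 it was 0.81 and within WT 0.26 on normalized counts, and 0.83 in each on RPM (n = 8 each). miR-99a and miR-125b, both encoded on chromosome 16, had 0.29 and 0.15. miR-99a and miR-100, which differ by 1 base, had 0.43 and 0.36, and miR-99a and miR-99b went from 0.61 to 0.06 with the change of scale. Without PS19 replicate 4 and WT replicate 7 (n = 14), miR-99a had 0.63 and 0.56 with miR-100 and 0.45 and 0.32 with miR-125b, closer to the 0.81 and 0.76 of miR-100 with miR-125b, and miR-99b with miR-125a had 0.72 and 0.73. These are descriptions over libraries that share a sequencing depth and a miRNA share within each mouse, and they carry no test.

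**Figure D4:**
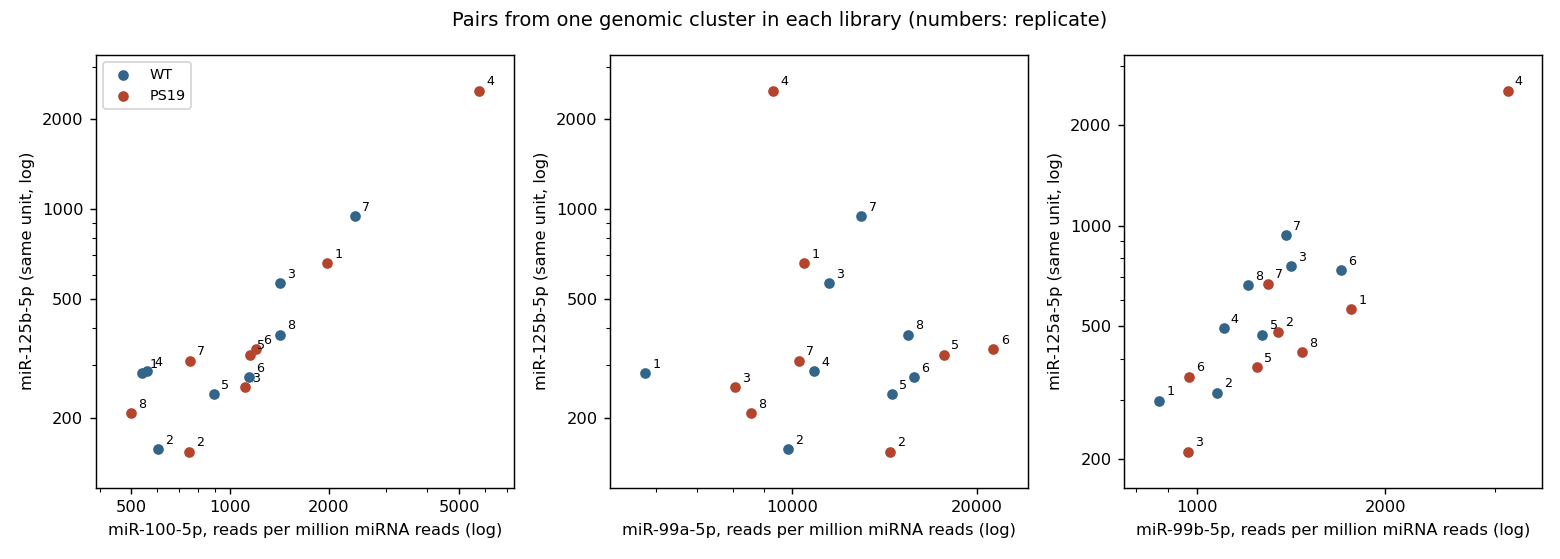
RPM (reads scaled to the miRNA reads of the library) of pairs of miRNAs that share a cluster, where miR-125b comes from 2 clusters, on log axes, with 1 point per library and its replicate number. miR-125b follows miR-100 (rho 0.84, left) and miR-125a follows miR-99b (rho 0.77, right), while miR-125b is spread over all levels of miR-99a (rho 0.15, middle).

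The let-7 neighbours, which differ from each other by 1 base in the pairs let-7c and let-7a (G19A) and let-7a and let-7e (U9G), were read beside the members. let-7c-5p was lower in PS19, with 40131 ± 24132 normalized counts compared with 76326 ± 29329 in WT, a log2 fold change of -1.16 (SE 0.52; limma p = 0.0339, adjusted p = 0.829, exact permutation p = 0.0190), 7 of 8 PS19 libraries being below the WT median, and on RPM its means were 89963 and 110898. This call was lost with total miRNA reads (-0.28), with size factors from miRNAs only (-0.57) and without the 3 libraries under 200000 miRNA reads (-0.39). It was also lost with edgeR (-1.05), with array weights (-0.90), within library names in G (-1.04), and without PS19 replicate 1 (-0.88), PS19 replicate 3 (-0.97) or WT replicate 1 (-1.06). let-7e-5p was 451 ± 256 and 692 ± 138 (log2 fold change -1.003, limma p = 0.0620, exact permutation p = 0.0343), and let-7a-5p was 9546 ± 5678 and 12807 ± 4895 (-0.71, limma p = 0.181, exact permutation p = 0.185), which turned to 0.17 with total miRNA reads and to 0.11 without those 3 libraries. For let-7e-5p the log2 fold change was -0.12 with total miRNA reads and -0.42 with size factors from miRNAs only, and its RPM means were 991 and 1055. rho with their cluster partners on normalized counts was 0.37 for miR-99a and let-7c, 0.36 for miR-100 and let-7a, 0.35 for miR-99b and let-7e, and 0.30 for miR-125a and let-7e. On RPM these values were 0.34, 0.52, 0.42 and 0.71. miR-125b, which comes from both the chromosome 9 and the chromosome 16 cluster, had 0.69 with let-7c and 0.51 with let-7a, and on RPM 0.68 and 0.69.

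**Figure D5:**
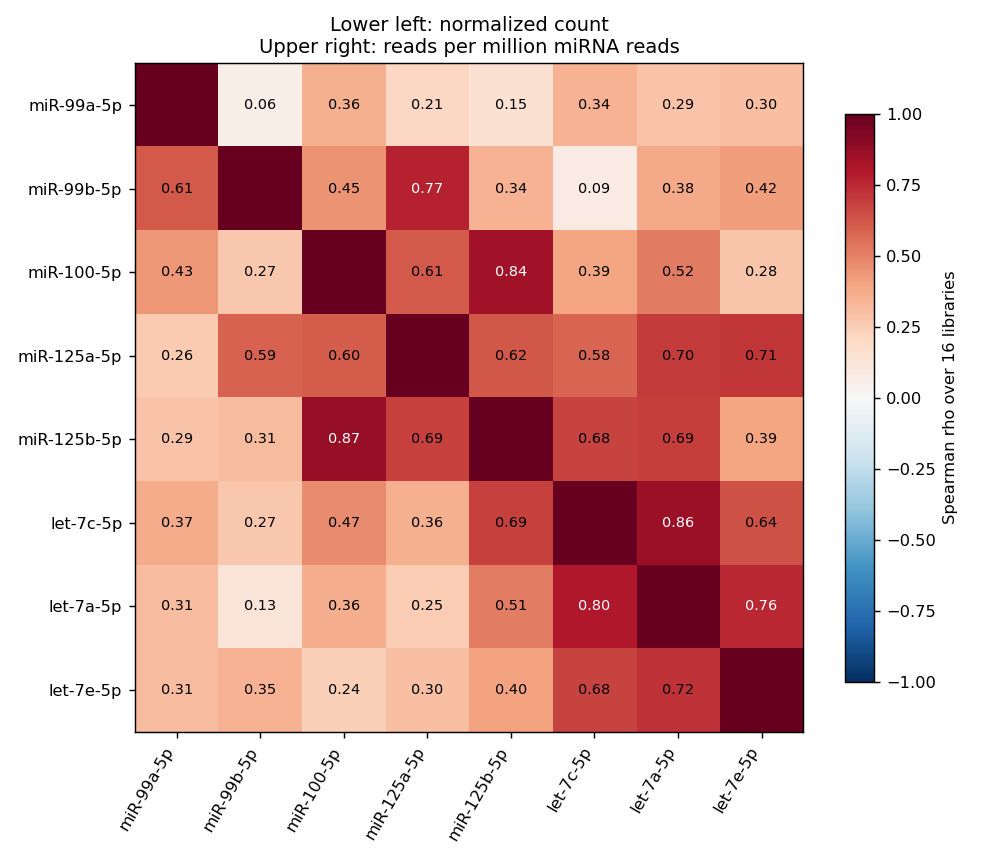
Spearman rho over 16 libraries between the 5 miRNAs and 3 let-7 miRNAs, on normalized counts (lower left) and on RPM (upper right). miR-100 with miR-125b is high on both scales (0.87 and 0.84), and miR-99a with miR-99b is not (0.61 and 0.06).

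Among the 219 mature miRNAs, those with patterns most like each member were then listed. For miR-125b they were miR-434-5p (rho 0.92), miR-379-5p (0.91) and miR-434-3p (0.91), and for miR-100 they were miR-434-5p (0.92), miR-379-5p (0.91) and miR-134-5p (0.89), where the median rho with all other mature miRNAs was 0.27 and 0.18. These look-alikes are all encoded on chromosome 12, between 109594528 and 109734166 (GRCm38.p6). On RPM, rho was 0.91, 0.92 and 0.86 for the first list and 0.85, 0.91 and 0.62 for the second. miR-379-5p had 1051 normalized counts in PS19 replicate 4 and 918 in WT replicate 7, its 2 highest libraries, against means of 300.7 ± 319 for PS19 and 360 ± 245 for WT. Without these libraries its rho was 0.87 with either miRNA on normalized counts (n = 14).

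For miR-125a the closest were miR-128-3p (0.91), miR-409-3p (0.90) and miR-222-3p (0.83), against a median of 0.31. On RPM the first pair kept 0.85 and 0.88, and miR-222-3p had 0.32. For miR-99a they were miR-101a-3p (0.84), miR-708-3p (0.83) and miR-24-3p (0.81), and for miR-99b miR-28a-3p (0.92), miR-361-3p (0.92) and miR-296-3p (0.91). These 6 values were 0.15, 0.40, 0.09, -0.17, 0.08 and 0.16 on RPM, so these likenesses were not kept on that scale.

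Marker miRNAs of likely sources moved with the members to different degrees. The neuron list (miR-9-5p, miR-124-3p and miR-128-3p), 0 of 3 called by limma, summed to 981 to 10017 normalized counts in PS19 and 2206 to 10415 in WT, the highest being PS19 replicate 4 and WT replicate 7. Its rho over 16 libraries was 0.87 with miR-125b, 0.86 with miR-125a, 0.74 with miR-100, 0.54 with miR-99b and 0.24 with miR-99a, and on RPM 0.79, 0.82, 0.74, 0.67 and 0.07. Without those libraries it was 0.80 with miR-125b, 0.79 with miR-125a and 0.61 with miR-100 (n = 14, normalized counts). With miR-99b and miR-99a it was 0.67 and 0.37. On RPM these values were 0.68, 0.73, 0.61, 0.59 and 0.20. On normalized counts other lists followed some members as closely: the red blood cell list had a rho of 0.75 with miR-99b and 0.56 with miR-99a, and miR-99b had 0.73 with the liver list and 0.72 with the endothelial list. On RPM these 4 values were 0.0029, 0.082, 0.16 and 0.33. miR-128-3p makes up most of the neuron list and is also the closest match of miR-125a, so these values are not independent.

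Over all miRNA entries limma called 5.93%, beside which each of these short lists has few entries. Of the red blood cell list, 1 of 6 was called by limma, miR-486a-5p (log2 fold change -1.41, limma p = 0.0410, exact permutation p = 0.0791), and the list summed to 2550 to 50735 in PS19 and 18850 to 104519 in WT. Of the liver list 1 of 2 was called, miR-122-5p (-1.57, limma p = 0.0387, exact permutation p = 0.0805), with sums of 8373 to 211497 and 26450 to 385899. Of striated muscle 1 of 3 was called, miR-206-3p (1.79, limma p = 0.0361, exact permutation p = 0.0903), with sums of 1733 to 94150 and 4513 to 64139. None of 4 platelet and white blood cell miRNAs (sums of 97.0 to 398 and 144 to 399) and none of 2 endothelial miRNAs (516 to 2262 and 1444 to 3373) was called by limma. The former were miR-223-3p, miR-142a-3p, miR-142a-5p and miR-150-5p, of which miR-150-5p had the highest mean, 143 for PS19 and 165 for WT. The exact permutation test passed 1 endothelial miRNA, miR-126a-3p (1293 ± 563 for PS19 and 2042 ± 590 for WT, log2 fold change -0.75, limma p = 0.0849, exact permutation p = 0.0169). On RPM its direction turned, with means of 3440 for PS19 and 2861 for WT. On RPM the means for PS19 and WT were 45315 and 57902 for miR-486a-5p, 98084 and 148298 for miR-122-5p, and 24533 and 2143 for miR-206-3p. The limma p-values in these lists are not adjusted, and no listed marker was at 0 in all libraries. The part of any of these sources in the members' values was not tested.

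The opposite arms and precursors of the 3 clusters were 16 further entries, of which 5 averaged 10 or more normalized counts. The log2 fold change was below 0 for 13 of 16, and limma called 4, all lower in PS19 and all with an adjusted p of 0.829, where it called 5.93% of all miRNA entries. Each of these calls was lost under several alternatives: mir-99a under 12 of 28, let-7c-1 under 10 of 28, mir-99b under 16 of 27 and miR-125b-2-3p under 9 of 27. None was called with total miRNA reads or without the 3 libraries under 200000 miRNA reads. The precursor mir-99a averaged 49.8 ± 37.6 for PS19 and 88.3 ± 38.7 for WT (log2 fold change -1.14, limma p = 0.0362, exact permutation p = 0.0326), and the precursor let-7c-1 had 58.0 ± 30.0 and 106 ± 39.1 (-0.97, limma p = 0.0417, exact permutation p = 0.0162). miR-125b-2-3p had 4.798 ± 7.63 and 12.8 ± 11.1 (-1.83, limma p = 0.0169, exact permutation p = 0.0395), on 43 reads in PS19, with 4 libraries at 0, and 147 in WT. The precursor mir-99b had 1 read in PS19 and 39 reads in 4 WT libraries (limma p = 0.0438, exact permutation p = 0.128), too few for a fold. On RPM the means of mir-99a, let-7c-1 and miR-125b-2-3p were 97.5, 140 and 8.81 for PS19 and 124.6, 156 and 17.4 for WT. Their log2 fold changes with total miRNA reads were -0.29, -0.10 and -1.46. DESeq2 on recovered reads called let-7c-1 and mir-99b of the 4, and edgeR, which called 15.1% of all ncRNAs, called miR-125b-2-3p and mir-99b.

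The 5p arm was the abundant one where both could be compared. Reads of miR-99b-5p exceeded those of miR-99b-3p by 13.2-fold, and those of miR-125a-5p exceeded miR-125a-3p by 5.47-fold, each in 16 of 16 libraries. miR-99b-3p averaged 51.2 ± 41.4 for PS19 and 62.7 ± 27.0 for WT (limma p = 0.251, exact permutation p = 0.262), and miR-125a-3p had 57.1 ± 45.1 and 51.8 ± 14.8 (limma p = 0.345, exact permutation p = 0.517). The 3p arms of the miR-125b genes differ in sequence and so separate the chromosomes. miR-125b-1-3p, from chromosome 9, had 552 reads and miR-125b-2-3p, from chromosome 16, had 190, a ratio of 2.91, with the former higher in 15 of 16 libraries. miR-125b-1-3p averaged 28.6 ± 24.1 for PS19 and 28.2 ± 8.78 for WT (limma p = 0.328, exact permutation p = 0.378).

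The miR-125 seed is shared by 5 of 1679 mature names in the RefSeq table, and the miR-99/100 seed by the 3 members alone. Of the further miR-125 seed carriers, miR-351-5p had values here, and miR-6394 and miR-6367 were not analysed here. miR-351-5p is printed to show how it departs from the family after the seed, and it is encoded on the X chromosome.
mmu-miR-351-5p: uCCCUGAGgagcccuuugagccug

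Its normalized count was 7.52, 17.5 and 50.1 (lowest, median and highest) in PS19 and 4.88, 31.3 and 40.0 in WT. The genotypes overlapped, with a log2 fold change of -0.01 (SE 0.54, 95% interval -1.12 to 1.09; limma p = 0.982, exact permutation p = 0.983). With 502 reads in all, it was far below miR-125a, which had 6170, and miR-125b, which had 3817.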

How the data were processed

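Small RNA from pEVs was sequenced, and per the study's methods reads were aligned with STAR (2.5.3a), assigned to ncRNAs with COMPSRA and normalized with DESeq2 (1.42.1; genome build mm10 in the submitters' processing notes). The signal values of the 16 libraries deposited by the authors are counts divided by each library's size factor. The authors' comparison columns (mean, log2 fold change, standard error, Wald statistic, p and adjusted p) were not used.

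Whole reads were recovered by dividing by the value of 1 read in each library, and 100% of values came out whole within 1e-06; depth is given in these reads. log2(normalized count + 1) was tested with limma 3.58.1 (lmFit, eBayes with trend) over 15159 ncRNAs with at least 1 read, 8 PS19 against 8 WT, at a raw p of 0.05 as in the study, with Benjamini-Hochberg adjustment over all ncRNAs. Single values also had a two-sided exact permutation test, computed with numpy 2.4.6. Spearman rho was computed with scipy 1.17.1 or, for the closest miRNAs of each member, with numpy on ranks. DESeq2 1.42.0 and edgeR 4.0.16 on recovered reads, other scalings, filters and left-out libraries were alternatives. The script was tested on simulated data.

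The text names the 5 members, the let-7 miRNAs, arms and precursors of their clusters, miRNAs with a shared seed, and the 3 mature miRNAs with the highest Spearman rho to each member. The members and lists were chosen with earlier results of these data known. Each library is 1 mouse. The RPM values of the members in PS19 replicate 4 carry Wilson 95% intervals for counting error, and the percentages of reads do not.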

Additional observations from a re-analysis of the deposited data

Results flagged for a closer look

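Among 18 groups of 8 libraries tested for a single value far from the rest, 2 had one, where a test of this kind marks about 1 in 20 groups by chance. WT replicate 7 had a log2 normalized count of 10.67 for miR-100-5p and of 9.31 for miR-125a-5p, in both cases well above the other 7 WT libraries. RPM values were not tested in this way. There WT replicate 7 had 2404 and 936, and the next highest WT library, replicate 3, had 1420 and 757.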

How the results depend on the processing

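The limma count of ncRNAs at a raw p of 0.05 was 735 (412 higher and 323 lower in PS19) and went to 437 with total assigned reads (144 and 293), 1132 with total miRNA reads (1033 and 99), 2295 with edgeR on recovered reads and 230 with ncRNAs averaging 10 or more normalized counts. None of the 5 members was called in any of these. Leaving out 1 library gave 0 to 3 members called: 3 without PS19 replicate 2 (miR-99a, miR-99b and miR-125a), 2 without PS19 replicate 4 and 1 without PS19 replicate 8, where 807, 796 and 767 of 15159 ncRNAs were called. The log2 fold changes over these left-out libraries ran from -1.07 to -0.57 for miR-99a, -0.84 to -0.45 for miR-99b and -0.77 to -0.40 for miR-100. They ran from -1.13 to -0.65 for miR-125a and -0.96 to -0.50 for miR-125b. The differences in log2 ratio ran from -0.28 to 0.38 for miR-125b to miR-99a, from -0.089 to 0.44 for miR-100 to miR-99a, from -0.43 (without PS19 replicate 4) to -0.16 for miR-125a to miR-99b and from -0.20 to -0.037 (without WT replicate 1) for miR-125b to miR-100. Directions turned with total miRNA reads for miR-99a (0.027), miR-99b (0.21), miR-100 (0.30) and miR-125b (0.18), and with size factors from miRNAs only for miR-100 (0.011). Without the 3 libraries under 200000 miRNA reads (chosen after seeing the data) they turned for miR-99a (0.060), miR-125b to miR-99a (-0.64) and miR-100 to miR-99a (-0.49), and within library names in G for miR-125a to miR-99b (0.019). The cause was not tested. Replicate numbers are shared by different mice, and same-numbered libraries deviated together with r of -0.18 to 0.47, and 1 of 8 numbers correlated best with its own, so they share only a number; a fit with the replicate block called 685 ncRNAs and 0 members. PS19 replicates 1, 3 and 4 limit the precision, with 35 to 1341 reads per member.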
